A study of Mus musculus with 8 samples.

Results

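Translation initiation factors (eIF) and elongation factors (eEF) were followed in whole testes by Nanopore direct RNA sequencing, which reads native poly(A) RNA molecule by molecule and gives for each read a transcript and a poly(A) tail length. The members were the transcripts whose gene symbol in the deposited tail table begins with Eif or Eef and a digit, and 32 of the 2783 transcripts in the tables met this rule. They came from 27 genes. Of the 32, 26 belonged to 22 initiation factor genes, 5 to the 4 elongation factor genes Eef1a1, Eef1b2, Eef1g and Eef2, and 1 to Eif1ad, a relative of eIF1A with no settled role in either step.

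The 8 libraries came from adult male mice carrying wild-type Tent5c (Tent5c wt/wt, here wt) or a catalytically inactive form of this cytoplasmic poly(A) polymerase in both copies (Tent5c dcat/dcat, here dcat). Mice received a single injection of busulfan at 20 mg/kg, an alkylating drug that depletes dividing germ cells, or vehicle, and testes were taken 4 weeks later. Each of the 4 groups (each genotype with vehicle or with busulfan) held 2 mice, 1 library per mouse. The dcat allele is present in every cell of those mice, so germ cells and somatic cells both lack the activity.

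Initiation factors bring the small ribosomal subunit, the initiator tRNA and the capped mRNA together and find the start codon, which is the step at which most regulation of protein synthesis acts. Elongation factors then deliver each aminoacyl-tRNA and move the ribosome along the mRNA. Male germ cells rely heavily on translational control, because spermatids stop transcription and use stored mRNAs, and tail length is tied to that control. The mRNAs of the elongation factors are among the best known TOP mRNAs, a class whose translation follows growth signals.

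The libraries held 29574 to 129074 reads, of which the 32 members took 1.29% to 1.59%, or 9145 reads in all. Levels of cell type markers differed between the treatments. Summed late spermatid markers (13 of 14 genes read) lay at 95016 to 119937 reads per 1000000 (CPM) over the vehicle libraries and, after busulfan, at 9144 and 12692 in wt but 21714 and 39286 in dcat mice. Spermatocyte markers (5 of 11) lay at 9654 to 11797 with vehicle, and after busulfan at 712 and 892 in wt and 1561 and 2906 in dcat mice, and round spermatid markers (5 of 9) at 1488 to 2030 with vehicle, then 15.1 and 86.6 in wt and 130.1 and 289.6 in dcat mice. After busulfan the summed reads of all 3 germ cell lists were thus higher in both dcat libraries than in both wt libraries. Of 25 late spermatid transcripts, 12 were called higher in dcat than in wt (edgeR, adjusted p under 0.05), beside 5.82% of all transcripts called in either direction. Not every gene on that list went this way. Odf1 had 82 and 227 reads in wt and 41 and 90 in dcat, and Smcp had 176 and 447 and then 160 and 238. Those wt libraries held 66052 and 115425 reads in all, and the dcat ones 61482 and 96700. Over the vehicle and then the busulfan libraries, Leydig cell markers (10 of 11) lay at 4083 to 7304 and 23816 to 49513, Sertoli cell markers (11 of 15) at 3084 to 5782 and 21644 to 33898, macrophage markers (3 of 7) at 62.0 to 237 and 703 to 1074, the 1 peritubular marker read (of 5) at 39.4 to 169 and 390.4 to 548, and the 1 spermatogonial marker read (of 8) at 39.4 to 169 and 165 to 610.1. By genotype, the Leydig list after busulfan was 45404 and 49513 in wt and 28773 and 23816 in dcat mice. The Sertoli list was 33898 and 33043 in wt and 31277 and 21644 in dcat mice. Erythroid markers (2 of 4) ranged from 0 to 924 CPM over all libraries. In wt mice they lay at 177 and 291 with vehicle and 924 and 771 with busulfan. In dcat mice they lay at 135 and 15.5 with vehicle and 0 and 20.7 with busulfan. No read marker was at 0 in all libraries of a treatment. In these bulk samples, fewer cells of a type and less RNA per cell cannot be told apart, and the part of the cell make-up in the results that follow was not tested.

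The 3′ ends of the annotated transcripts the results turn on are shown because the tail is added at the 3′ end and because 3′ reads decide to which transcript a molecule is counted. They are the last 30 bases in GENCODE vM21 (GRCm38), 5′ to 3′, with the poly(A) signal AATAAA or ATTAAA in capitals where the search found it.
Eef1a1, ENSMUST00000042235: accATTAAAacaagtttaatgagaaatctg
Eef1b2, ENSMUST00000129339: aataataAATAAAtcttttttaaaaaaata
Eef1g, ENSMUST00000052248 and ENSMUST00000135025: gctgagctaaggggtagctcacagtgtgca
Eef2, ENSMUST00000047864: ggagtAATAAActacagtggttgatccaca
Eif1, ENSMUST00000049385: cttatttaAATAAAgcttgttttcagaaac
Eif1b, ENSMUST00000007139: agtgtgcatcctttatgagcgctgacctaa
Eif4a1, ENSMUST00000163666 and ENSMUST00000128519: attctgAATAAAattacttggaaactgcct
Eif6, ENSMUST00000029142: cccATTAAAggactgcctcccaccatcctc
Eef1a1 lies at chr9:78478449-78481724 (minus strand, 8 exons), Eef1b2 at chr1:63176825-63180486 (plus, 6 exons), Eef2 at chr10:81176631-81182498 (plus, 14 exons), Eif1 at chr11:100319885-100322096 (plus, 4 exons), Eif1b at chr9:120492491-120495330 (plus, 4 exons) and Eif6 at chr2:155819832-155826925 (minus, 6 exons). Either signal stood within the last 30 bases of 18 of the 32 members (56.2%) and of 1862 of the 2738 transcripts of the table found in that annotation (68.0%). The pair of Eef1g transcripts share their last 30 bases, as do the pair of Eif4a1 transcripts listed together, and Eif4a1 ENSMUST00000123995 ends 1 base earlier. ENSMUST00000135025, ENSMUST00000128519 and ENSMUST00000123995 are annotated as retained-intron transcripts. A read from the shared 3′ part can go to any transcript of the gene, so their separate counts are uncertain. The counts of Eef1a1 are uncertain for another reason, since mammalian genomes carry many near-identical processed copies of this gene.

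Busulfan changed the read counts of a minority of the factors. In wt testes 7 members rose and 3 fell of 32 tested (edgeR quasi-likelihood test, adjusted p under 0.05), against 73.8% of all transcripts called, 35.4% higher and 38.3% lower. In dcat testes 3 members rose and none fell, against 62.7% of all transcripts called, 31.3% higher and 31.4% lower. All 3 were also called in wt. RLE scaling gave 6 higher and 6 lower in wt and 2 and 1 in dcat, while DESeq2 gave 3 and 2 in wt and 0 in dcat (1 at an unadjusted p under 0.05). Without wt busulfan replicate 2 the wt calls numbered 6, and without dcat vehicle replicate 2 a single dcat call was left. The median log2 fold change of the members was 0.06 in wt and 0.02 in dcat, beside 0.09 and 0.14 over all transcripts. A transcript is in the tables if both libraries of some group gave it 10 reads or more, a rule that admits it through the treatment in which it is high. Of the members, 11 entered through busulfan groups only, 3 through vehicle groups only and 18 through groups of both treatments. The wt rises of Eef1b2, the Eif4a1 transcripts and Eif6, and all 3 dcat rises, belong to members that entered through busulfan groups only, and the wt fall of Eif2s1 to one that entered through wt vehicle only, so the filter itself favoured these directions. Among the 18, 4 were called in wt and 0 in dcat by edgeR (1 at an unadjusted p under 0.05), beside 52.8% and 39.5% of the 678 transcripts that entered the same way. The 4 were Eef1a1 and Eif4g2, which rose, and Eif1 and Eif1b, which fell.

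**Figure D1:**
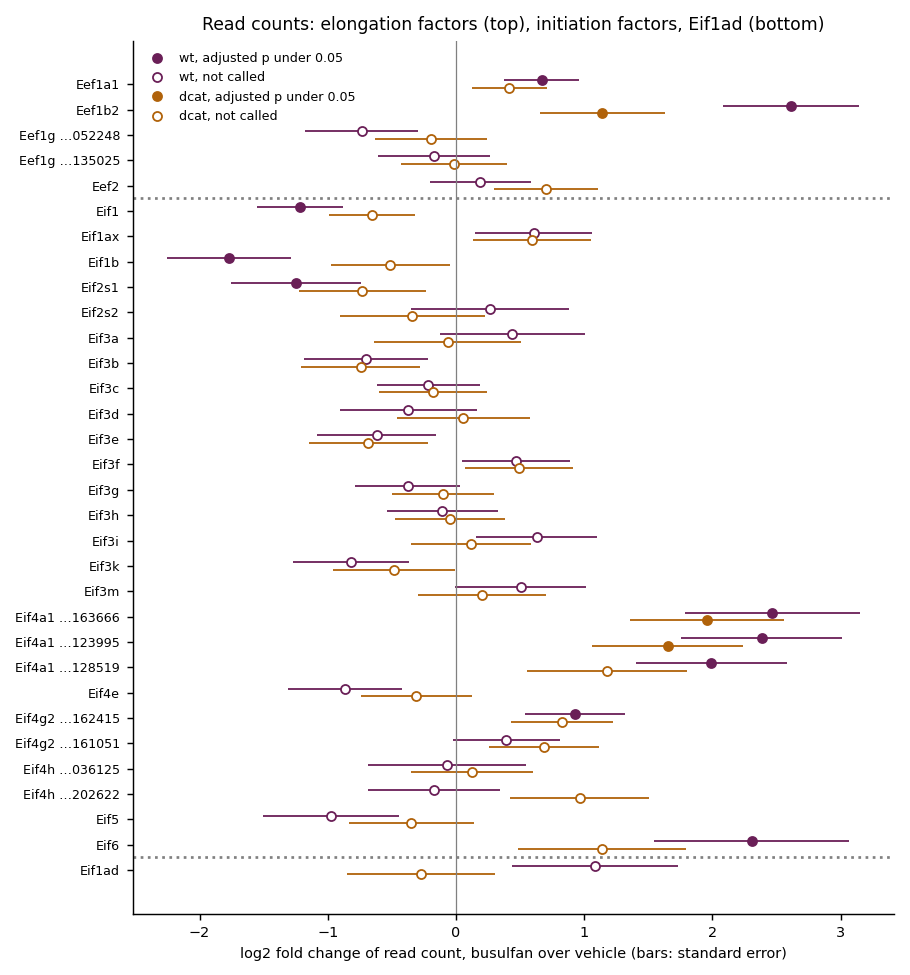
Log2 fold change of read count, busulfan over vehicle, for each of the 32 members in wt (purple) and dcat (brown), with standard errors; filled points have an adjusted p under 0.05. Eef1b2, Eif6 and the Eif4a1 transcripts in wt lie farthest to the right, Eif1b in wt farthest to the left, and the eIF3 subunits lie between −0.82 and 0.63 in both genotypes.

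Among the elongation factors, Eef1b2 and Eef1a1 rose while Eef1g and Eef2 were not called. Eef1a1 encodes the factor that carries aminoacyl-tRNA to the ribosome and gave the most reads of all members. Its TMM-scaled CPM, in replicate order, were 3254 and 3274 in vehicle against 4868 and 5498 in busulfan libraries of wt mice, and 3949 and 3555 against 5138 and 4847 in those of dcat mice. All busulfan libraries lay above all vehicle libraries. The log2 fold change was 0.67 ± 0.29 (SE) in wt (adjusted p = 0.0429), and 0.42 ± 0.29 in dcat (adjusted p = 0.216). The wt call was lost with DESeq2 (adjusted p = 0.133) and with RLE scaling (adjusted p = 0.0601), and it was also lost without either wt busulfan or either dcat busulfan library (adjusted p = 0.0533 to 0.159).

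Eef1b2 encodes a subunit of the complex that reloads eEF1A with GTP. It is in the tables only through the busulfan groups, in which it is high. The libraries held 116 and 57.2 scaled CPM with vehicle against 393 and 631 with busulfan in wt mice, and 232 and 152 against 385 and 391 in dcat mice. The groups did not overlap in either genotype. The vehicle values rest on few molecules, with 6 and 4 reads in wt and 7 and 19 in dcat. The log2 fold change was 2.61 ± 0.53 in wt (adjusted p = 0.000133) and 1.14 ± 0.49 in dcat (adjusted p = 0.0434). The difference between the genotypes was −1.47 ± 0.75 and did not pass the interaction test (adjusted p = 0.336). The dcat call was lost with DESeq2, RLE scaling, the replicate block and a fit of the 4 dcat libraries alone (adjusted p = 0.247, 0.0695, 0.0511 and 0.109), and without dcat vehicle replicate 2 (adjusted p = 0.313), either dcat busulfan library or wt busulfan replicate 1 (adjusted p = 0.0507 to 0.0805).

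Eef1g, another subunit of that exchange complex, gave 343 to 717 scaled CPM for its protein-coding transcript ENSMUST00000052248 in vehicle libraries and 257 to 522 in busulfan libraries. Eef2, the translocase that moves the ribosome by a codon, ranged from 498 to 1123 in vehicle and from 642 to 1456 in busulfan libraries. The ranges overlapped between treatments, although in wt both busulfan libraries lay below both vehicle libraries for Eef1g, and neither gene was called in either genotype (adjusted p = 0.132 to 0.972 for the 3 transcripts). Eef2 in dcat was called under an alternative, and its log2 fold change ran from −0.03 to 1.16 over the alternatives run.

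**Figure D2:**
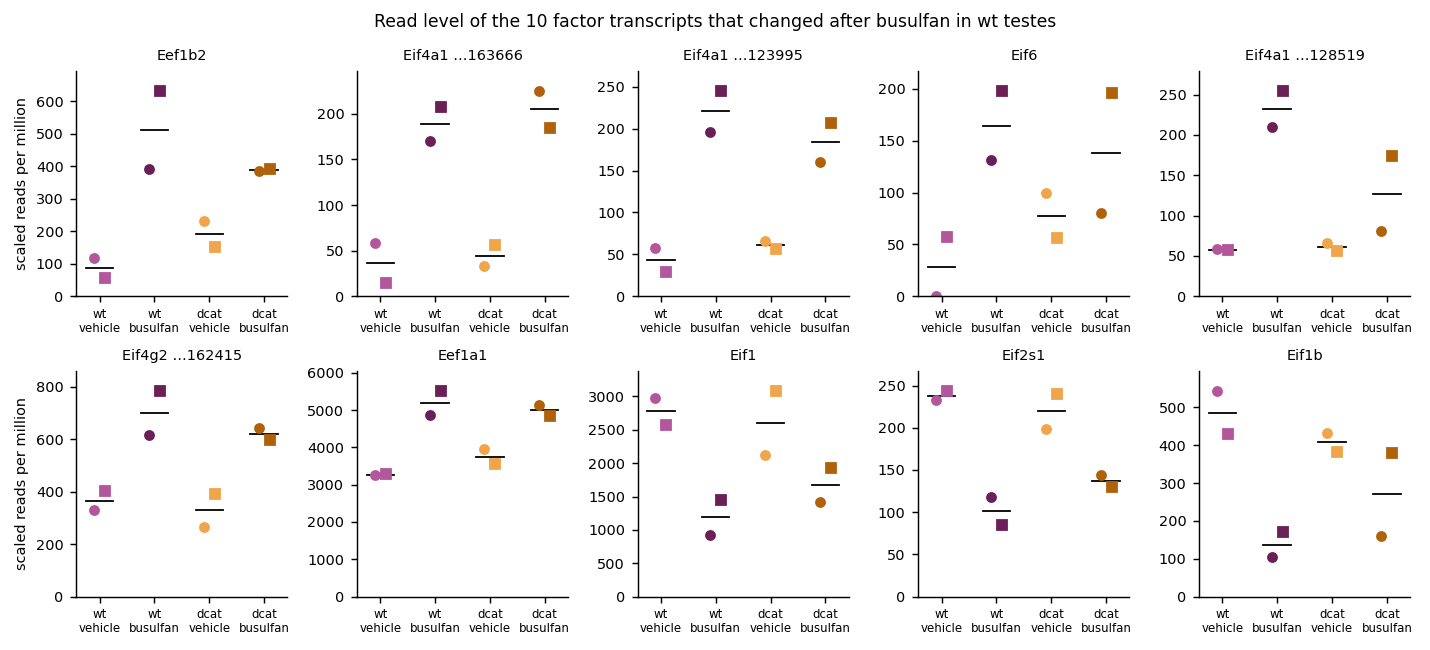
TMM-scaled CPM of the 10 members called after busulfan in wt, per library (circles, replicate 1; squares, replicate 2; bars, group means; the y axes start at 0). The first 7 panels show members that rose and the last 3 members that fell; in each panel the 2 wt busulfan libraries lie apart from the 2 wt vehicle libraries.

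Of the initiation factors, 5 transcripts rose and 3 fell of 26 in wt, and 2 rose in dcat. Over all transcripts 35.4% were higher and 38.3% lower in wt, and 31.3% higher in dcat. The risers were all 3 transcripts of Eif4a1 and Eif6, which entered through busulfan groups only, and 1 of the 2 transcripts of Eif4g2. Eif4a1 encodes the RNA helicase that unwinds the mRNA leader. Its protein-coding transcript ENSMUST00000163666 gave 58.1 and 14.3 scaled CPM (vehicle) and 170.1 and 207 (busulfan) in wt mice, with 33.2 and 55.9 (vehicle) and 225 and 185 (busulfan) in dcat mice. The log2 fold changes of the transcripts were 1.99 to 2.47 in wt (adjusted p = 0.00158 to 0.00398) and 1.18 to 1.96 in dcat (adjusted p = 0.00745 to 0.101). With its transcripts summed, Eif4a1 rose by 2.34 ± 0.44 in wt (adjusted p = 5.55e-05) and by 1.58 ± 0.43 in dcat (adjusted p = 0.00308), values that do not depend on how reads were split between them but still rest on transcripts admitted through the busulfan groups. The separate dcat calls of ENSMUST00000163666 and ENSMUST00000123995 were lost with DESeq2 (adjusted p = 0.108 and 0.192) and without dcat vehicle replicate 2 (adjusted p = 0.0873 and 0.221), and the latter also without dcat busulfan replicate 2 (adjusted p = 0.0919). In wt, DESeq2 did not call ENSMUST00000128519 (adjusted p = 0.0658).

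Eif4g2 encodes a relative of the scaffold eIF4G that lacks the binding site for the cap-binding protein. Its longer transcript ENSMUST00000162415 (7995 nt) gave 329 and 400.4 scaled CPM with vehicle against 615 and 781 with busulfan in wt mice, and 265 and 391 against 642 and 598 in dcat mice. Every busulfan library exceeded every vehicle library. On the log2 scale the change was 0.93 ± 0.39 in wt (adjusted p = 0.0340) and 0.82 ± 0.40 in dcat (adjusted p = 0.0723), and the wt call was lost with DESeq2 (adjusted p = 0.153) or without wt busulfan replicate 2 (adjusted p = 0.196) or wt vehicle replicate 1 (adjusted p = 0.0506), while in dcat it was called with filterByExpr (adjusted p = 0.0434). The shorter transcript ENSMUST00000161051 (3548 nt), which ends at a different site, was not called, with values of 0.39 ± 0.42 in wt (adjusted p = 0.399) and 0.69 ± 0.43 in dcat (adjusted p = 0.163).

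Eif6 encodes a factor that keeps the large ribosomal subunit from joining too early. Read numbers were 0 and 4 (vehicle) and 10 and 21 (busulfan) in wt mice, with 3 and 7 (vehicle) and 5 and 18 (busulfan) in dcat mice. A count of 0 allows up to 3 reads at that depth, and only the wt busulfan group admitted Eif6 to the tables. On the log2 scale the change was 2.31 ± 0.76 in wt (adjusted p = 0.0085), and 1.14 ± 0.65 in dcat (adjusted p = 0.128), where the scaled values of the groups overlapped. The wt call was lost with DESeq2 (adjusted p = 0.0719), without wt busulfan replicate 2 (adjusted p = 0.0803) and without wt vehicle replicate 1 (adjusted p = 0.0614), and a dcat call was made without dcat busulfan replicate 1 (adjusted p = 0.0430).

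The members that fell in wt were Eif1, Eif1b and Eif2s1. Eif1 and its paralog Eif1b encode small proteins that help the scanning ribosome to reject wrong start codons, and Eif1 was the most read initiation factor. Its scaled CPM were 2983 and 2574 (vehicle) and 929 and 1449.9 (busulfan) in wt mice, with 2124 and 3075 (vehicle) and 1413 and 1924 (busulfan) in dcat mice. In each genotype the busulfan libraries lay below the vehicle libraries. The log2 fold change was −1.21 ± 0.34 in wt (adjusted p = 0.00239) and −0.65 ± 0.33 in dcat (adjusted p = 0.0873). The wt call became an adjusted p of 0.0525 without wt busulfan replicate 1, and in dcat Eif1 was called with RLE scaling (adjusted p = 0.0113) and without dcat vehicle replicate 1 (adjusted p = 0.0140).

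Eif1b gave 542 and 429 scaled CPM with vehicle against 105 and 169 with busulfan in wt mice, and 431 and 383 against 161 and 380.4 in dcat mice. The wt groups were far apart, whereas dcat busulfan replicate 2 lay close to the vehicle libraries. The wt log2 fold change was −1.77 ± 0.48 (adjusted p = 0.00213), which was called under every alternative run, and −0.51 ± 0.46 in dcat (adjusted p = 0.335). The difference between the genotypes, 1.26 ± 0.67, did not pass the test (adjusted p = 0.376). The 3′ ends printed above differ between Eif1 and Eif1b, though their coding sequences are alike and reads could still be exchanged.

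Eif2s1, the subunit of eIF2 whose phosphorylation shuts down initiation under stress, gave 232 and 243 scaled CPM (vehicle) and 118 and 84.7 (busulfan) in wt mice, with 199 and 239.6 (vehicle) and 145 and 130.4 (busulfan) in dcat mice. The groups did not overlap, and only wt vehicle, where it is high, admitted it to the tables. The log2 fold change was −1.25 ± 0.51 in wt (adjusted p = 0.0301) and −0.73 ± 0.49 in dcat (adjusted p = 0.196). The wt call was lost with DESeq2 (adjusted p = 0.101), with the filterByExpr filter (adjusted p = 0.0810) and without wt busulfan replicate 2, either wt vehicle library or either dcat vehicle library (adjusted p = 0.0600 to 0.196). Eif2s2, another eIF2 subunit, was not called (log2 fold changes of 0.27 ± 0.62 and −0.34 ± 0.57).

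The subunits of eIF3, the large scaffold that holds the small ribosomal subunit to the mRNA, were all uncalled in counts. Of 11 subunits measured (a, b, c, d, e, f, g, h, i, k and m), edgeR called 0 in wt and 0 in dcat, and 0 had an unadjusted p under 0.05 in either, while DESeq2 also called 0. The shares over all transcripts were 73.8% and 62.7%. Among transcripts that entered through groups of both treatments, as most of these subunits did, the shares were 52.8% and 39.5%. Log2 fold changes ran from −0.82 to 0.63 in wt, with 7 of 11 below 0, and from −0.74 to 0.49 in dcat, again with 7 of 11 below 0. Eif3g, the most read subunit, gave 398 to 487 scaled CPM in vehicle and 314 to 499.9 in busulfan libraries. For Eif3c the 95% interval of the log2 fold change was −1.05 to 0.61 in wt, which leaves room for changes of that size in either direction. Eif4e, the cap-binding protein, had log2 fold changes of −0.87 ± 0.45 in wt (adjusted p = 0.0814) and −0.31 ± 0.43 in dcat (adjusted p = 0.539), and Eif5, which triggers GTP hydrolysis on eIF2, had −0.98 ± 0.53 (adjusted p = 0.0987) and −0.35 ± 0.49 (adjusted p = 0.543). Eif1ax, both Eif4h transcripts and Eif1ad were likewise not called in either genotype by the main fit. Some alternatives called Eif1ax, with log2 fold changes of 0.32 to 0.88 in wt and 0.25 to 2.02 in dcat over all alternatives. Eif4h ENSMUST00000202622 was called under an alternative in dcat, where its values ran from 0.43 to 1.78.

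Summed over the class, elongation factor reads took a larger share after busulfan in both genotypes, and initiation factor reads a smaller share in wt. Initiation factors were 0.930% and 0.821% of all reads with vehicle against 0.749% and 0.758% with busulfan in wt mice, and 0.825% and 0.910% against 0.761% and 0.860% in dcat mice. Elongation factors were 0.558% and 0.453%, 0.766% and 0.731%, 0.558% and 0.515%, and lastly 0.691% and 0.720% in that order. In the shallowest library, dcat vehicle replicate 1, the Wilson 95% interval of the initiation share was 0.728% to 0.935%. All 4 busulfan libraries exceeded all 4 vehicle libraries for elongation factors, whereas initiation factors were lower in both wt busulfan libraries than in both wt vehicle libraries and overlapped in dcat. Both separations rest on the most read gene. Without Eef1a1 the elongation shares were 0.136% to 0.227% with vehicle and 0.171% to 0.259% with busulfan, which overlap, and the wt log2 change was 0.29 in place of 0.57. What was left includes Eef1b2, which entered through busulfan groups only (in wt 6 and 4 reads with vehicle, 30 and 67 with busulfan). Both classes hold members admitted that way, and the initiation class also holds members admitted through vehicle groups only. The filter thus bears on these sums and ratios. Without Eif1 the wt initiation change turned from −0.21 to 0.08 on the log2 scale. The ratio of elongation to initiation factor reads was 0.576 ± 0.033 (SD, n = 2) with vehicle and 0.993 ± 0.041 with busulfan in wt mice, and 0.621 ± 0.078 and 0.872 ± 0.051 in dcat mice. The ratios rest on the same pair of genes. Without them the ratios per library were 0.238 to 0.362 with vehicle and 0.316 to 0.361 with busulfan in wt mice, and 0.256 to 0.278 and 0.276 to 0.382 in dcat mice, and the treatments overlapped.

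**Figure D3:**
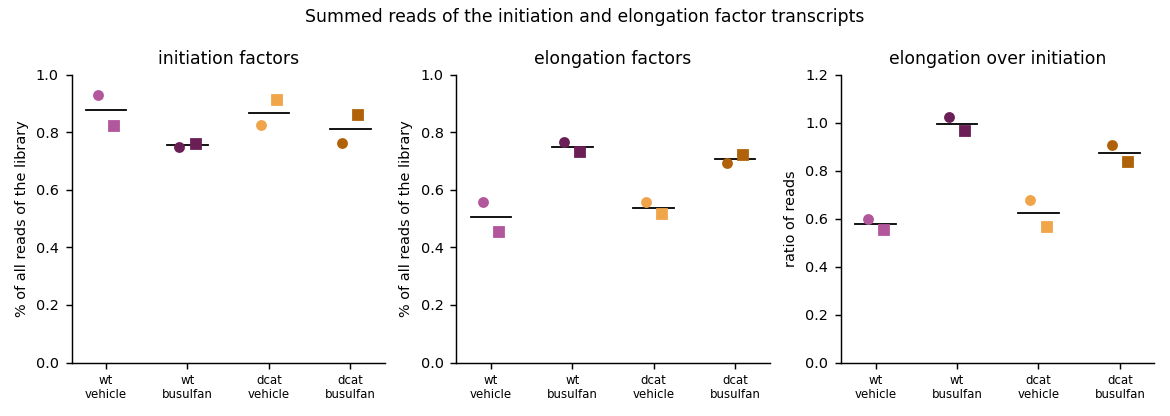
Share of all reads taken by the initiation factors and by the elongation factors, and the ratio of elongation to initiation factor reads, per library (circles, replicate 1; squares, replicate 2; bars, group means). The ratio lies between 0.552 and 0.676 in vehicle libraries and between 0.837 and 1.02 in busulfan libraries.

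All elongation factor tails that could be tested shortened in wt testes after busulfan, and most initiation factor tails were not called. A mean tail was tested with at least 10 reads in each library of a contrast. In wt 6 of 17 members tested became shorter after busulfan (limma, adjusted p under 0.05) and none longer, against 32.8% of all transcripts called, 32.3% shorter. All 4 elongation factor transcripts tested were among the 6, with differences of −58.5 to −31.1 nt, but only 2 of 13 initiation factor transcripts, Eif1 and Eif1ax. The 4 include the pair of Eef1g transcripts with a shared 3′ end. Calls also depend on the reads behind a mean. In wt Eif3b went from 157 to 122 nt on 10 to 18 reads per library and was not called. Eef1g ENSMUST00000052248 went from 149 to 114 nt on 23 to 37 reads and was called. In dcat 2 of 11 members became shorter, Eef1a1 and Eif1, against 24.3% of all transcripts, all of them shorter. Over the members tested the median tail difference was −21.8 nt in wt mice and −22.6 nt in dcat mice, beside −19.9 and −17.2 nt over all transcripts tested. The mean tail of all reads of a library fell from 139 and 141 nt to 112 and 115 nt in wt and from 134 and 144 nt to 111 and 115 nt in dcat. With each library centred on the median of the mean tails of the transcripts tested, limma called 0 of 17 members in wt (4 at an unadjusted p under 0.05) and 0 of 11 in dcat (2 unadjusted). The centred differences of the 4 elongation factor transcripts in wt were −35.3 to −7.88 nt. Uncentred, the wt calls fell to 3 without either wt busulfan library or wt vehicle replicate 2 and to 1 without wt vehicle replicate 1, and the dcat calls to 0 without dcat busulfan replicate 1.

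For Eef1a1 the mean tails were 139.9 and 143 nt in vehicle against 109 and 111 nt in busulfan libraries of wt mice, and 144 and 149 nt against 107 and 112 nt in those of dcat mice, from 119 to 584 reads each. The treatments were widely separated in both genotypes. Busulfan and vehicle differed by −31.1 ± 3.8 nt (SE) in wt mice (adjusted p = 0.000382) and by −37.2 ± 3.6 nt in dcat mice (adjusted p = 0.00149), and after centring the differences were −7.88 nt in wt (adjusted p = 0.323) and −14.4 nt in dcat (adjusted p = 0.0547). The wt call held without any single library, and the dcat value became −34.7 nt without dcat busulfan replicate 1, just short of the threshold. Short tails of 30 to 120 nt made up 39.3% and 41.5% of its reads in wt vehicle (Wilson 95% intervals 32.2% to 46.8% and 35.3% to 48.0%) and 62.9% and 57.9% in wt busulfan (57.9% to 67.7% and 53.8% to 61.8%). In dcat they made up 34.5% and 34.2% (26.5% to 43.4% and 29.9% to 38.7%) against 67.2% and 59.0% (61.9% to 72.1% and 54.3% to 63.4%). The intervals, which cover counting error only, did not overlap between treatments. In each vehicle library the fullest bin of 20 nt began at 160 or 180 nt, and in each busulfan library it began at 60 nt.

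**Figure D4:**
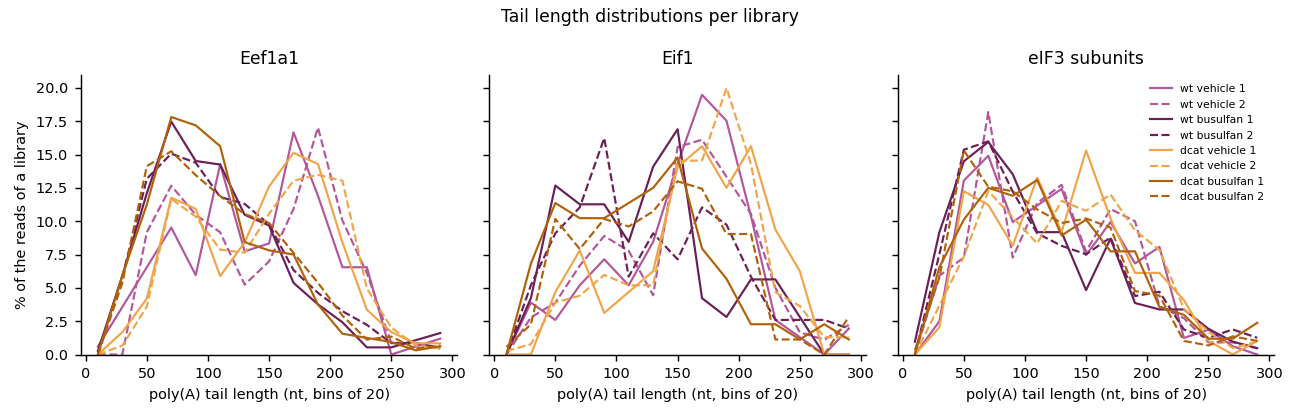
Share of the reads of a library in bins of 20 nt of tail length for Eef1a1, Eif1 and the pooled eIF3 subunits (solid, replicate 1; dashed, replicate 2; the last bin takes all longer tails). For Eef1a1 the peak of long tails in the vehicle libraries is missing from the busulfan libraries, while the pooled eIF3 means of the treatments differ by −11.3 nt (wt) and −12.0 nt (dcat).

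In wt the other elongation factors tested shortened as well. Eef2 tails averaged 141 and 142 nt (vehicle) and 88.6 and 104 nt (busulfan) in wt mice, with 122 and 157 nt (vehicle) and 99.7 and 112 nt (busulfan) in dcat mice. The difference was −45.0 ± 11.1 nt in wt (adjusted p = 0.0127) and −33.6 ± 11.6 nt in dcat (adjusted p = 0.0618). The wt call was lost without either wt vehicle library or wt busulfan replicate 1 (adjusted p = 0.0584 to 0.0823), and the dcat difference was called with the replicate block (adjusted p = 0.0334) and with read weights (adjusted p = 0.00156), and also without dcat vehicle replicate 1 or either wt busulfan library (adjusted p = 0.0297 to 0.0475) and with means of under 10 reads left out (adjusted p = 0.0492).

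Eef1g ENSMUST00000052248 had mean tails of 142 and 156 nt in wt vehicle and 111 and 118 nt in wt busulfan libraries, a difference of −34.5 ± 10.9 nt (adjusted p = 0.0336). Its retained-intron transcript ENSMUST00000135025 had 162 and 151 nt against 107 and 89.0 nt, a difference of −58.5 ± 12.2 nt (adjusted p = 0.00592). The wt groups did not overlap for either transcript. In dcat the differences were −23.3 ± 10.7 nt and −22.6 ± 11.1 nt (adjusted p = 0.138 and 0.155). Removal of any wt library ended the first wt call (adjusted p = 0.0862 to 0.181), as did the median in place of the mean (adjusted p = 0.0708), and the second was lost without wt busulfan replicate 2 or wt vehicle replicate 1 (adjusted p = 0.0595 and 0.0558). With the reads of the gene pooled, the difference was −43.8 ± 8.0 nt in wt (adjusted p = 0.00355) and −21.4 ± 7.4 nt in dcat (adjusted p = 0.0584). Eef1b2 had under 10 reads in 3 of the vehicle libraries and was not tested for tails. Its means were 118 to 159.6 nt in vehicle and 87.7 to 102 nt in busulfan libraries.

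**Figure D5:**
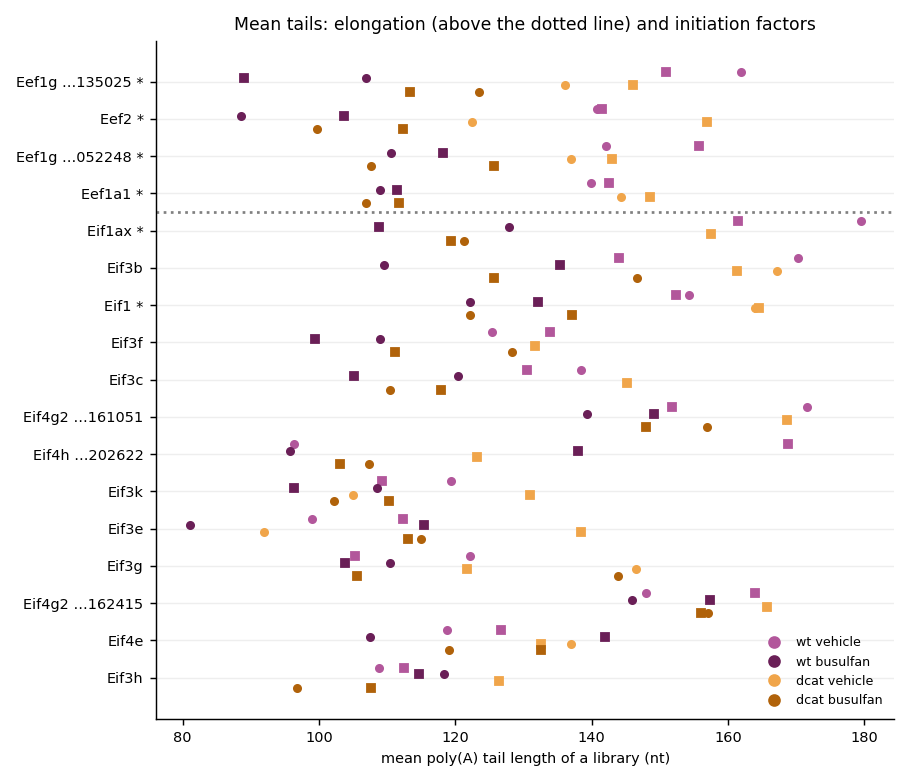
Mean poly(A) tail length per library, for libraries with at least 10 reads, of the 17 members tested in wt (circles, replicate 1; squares, replicate 2; asterisk, shorter after busulfan in wt at an adjusted p under 0.05). For the 4 elongation factor transcripts every busulfan library lies to the left of the vehicle libraries of its genotype, whereas the treatments mix for Eif3g, Eif3e and Eif4e.

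Among initiation factors, Eif1 had mean tails of 154 and 152 nt in vehicle against 122 and 132 nt in busulfan libraries of wt mice, and 164 and 165 nt against 122 and 137 nt in those of dcat mice. All vehicle libraries lay above all busulfan libraries. Busulfan and vehicle differed by −26.2 ± 6.7 nt in wt mice (limma, adjusted p = 0.0142) and by −34.6 ± 6.1 nt in dcat mice (adjusted p = 0.0056). The mean of all reads differed by −25.9 and −26.7 nt. With centred libraries limma called Eif1 in neither genotype (adjusted p = 0.796 in wt and 0.220 in dcat). Leaving out wt busulfan replicate 1 or either wt vehicle library ended the wt call (adjusted p = 0.0673 to 0.110), and leaving out dcat busulfan replicate 1 ended the dcat call (adjusted p = 0.0899). In wt Eif1 lost reads and long tails together, while Eef1a1 gained reads as its tails shortened.

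Eif1ax, which works with eIF1 during scanning, had mean tails of 179.5 and 161 nt in wt vehicle and 128 and 109 nt in wt busulfan libraries, with no overlap. The difference was −52.1 ± 13.0 nt (adjusted p = 0.0130), and it was lost without wt busulfan replicate 2 (adjusted p = 0.108) or wt vehicle replicate 1 (adjusted p = 0.104). In dcat it was not tested, because 1 vehicle library held 3 reads. None of the eIF3 subunits was called, as 0 of 7 tested in wt and 0 of 4 tested in dcat passed limma's test (1 and 0 at an unadjusted p under 0.05). Over all transcripts tested the shares called were 32.8% in wt and 24.3% in dcat. With so few subunits tested, 0 calls do not set eIF3 apart. The eIF3 differences ran from −34.6 nt (Eif3b, adjusted p = 0.118) to 5.91 nt (Eif3h, adjusted p = 0.705) in wt. The eIF4 factors tested, Eif4e, both Eif4g2 transcripts and Eif4h ENSMUST00000202622, were not called either, with differences of −17.5 to 2.00 nt in wt. The same shares and the same limit apply to them.

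Pooled over all reads of a class, mean tails of the classes were close in vehicle testes and apart after busulfan. Initiation factor reads averaged 141 ± 2 nt (SD, n = 2) in wt vehicle and elongation factor reads 143 ± 2 nt, and in dcat vehicle they averaged 145 ± 7 and 144 ± 6 nt. After busulfan they averaged 124 ± 6 and 107 ± 2 nt in wt, and 129.7 ± 0.1 and 109 ± 4 nt in dcat. The difference between treatments was −17.6 nt for initiation and −35.4 nt for elongation factors in wt, beside −25.9 nt for all reads, and −15.8, −35.3 and −26.7 nt in dcat. In all 4 busulfan libraries the elongation factor mean was below the initiation factor mean. These class means are descriptions with no test, and they weight each gene by its reads. Without Eif1 and Eef1a1, wt vehicle libraries averaged 133 and 139 nt for initiation and 143 and 148 nt for elongation factors, which were then apart before treatment too. In dcat vehicle libraries these means overlapped, at 132 and 144 nt for initiation and 130 and 149 nt for elongation factors. Without Eif1 the dcat initiation difference was −8.30 nt, and medians of the pooled reads gave −31.3 nt for initiation and −54.2 nt for elongation factors in wt, and −26.6 nt for initiation factors in dcat.

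Among the initiation factors, the families had different pooled mean tails in vehicle testes, again as a description with no test. Reads of eIF1, eIF1B and eIF1A averaged 153 ± 1 nt in wt vehicle and 158 ± 5 nt in dcat vehicle, while those of the 11 eIF3 subunits averaged 123 ± 1 and 131 ± 5 nt. From vehicle to busulfan the eIF1 family differed by −28.5 nt in wt mice and −29.1 nt in dcat mice. The eIF3 subunits differed by −11.3 and −12.0 nt, the eIF4 factors by −3.69 and −7.65 nt, and all reads by −25.9 and −26.7 nt. Spreads (root of the summed variances) were 2.08 and 9.39 nt for the eIF1 family in wt and dcat. They were 3.21 and 8.29 nt for eIF3, and 13.3 and 3.17 nt for eIF4. These pools weight each gene by its reads, and the mix of transcripts differed between treatments. Eif1 gave 154 of the 196 eIF1 family reads in wt vehicle replicate 1. Mean tails of Eif1b went from 145 to 123 nt in wt and, with overlap, from 128 to 138 nt in dcat mice.

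No difference between dcat and wt testes passed the tests in these transcripts. Comparing dcat with wt after busulfan, edgeR called 0 of 32 members in counts (1 at an unadjusted p under 0.05, and 0 called by DESeq2), against 5.82% of all transcripts. After vehicle it called 0 (0 unadjusted and 0 by DESeq2), against 0.0% of all transcripts. In tail length limma called 0 of 22 after busulfan (0 unadjusted), against 0.421% of all transcripts, and 0 of 11 after vehicle (0 unadjusted), against 0.0%. The interaction of genotype and busulfan was called for 0 of 32 members in counts (0 unadjusted and 0 by DESeq2), against 0.323%, and for 0 of 10 in tails, against 0.885%, where 1 member, the retained-intron transcript of Eef1g, had an unadjusted p under 0.05 (35.9 ± 15.5 nt, adjusted p = 0.607). The bounds were narrow only for Eef1a1, whose tail in dcat differed from wt by −0.86 nt after busulfan (95% interval −8.62 to 6.89 nt) and by 5.22 nt after vehicle (−5.27 to 15.7 nt). For Eif1 the interval after busulfan was −14.2 to 19.2 nt. The count that came closest was Eif4h ENSMUST00000036125, at a log2 fold change of 1.28 ± 0.51 after busulfan (adjusted p = 0.142).

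Other genes of the pathway were taken from 3 lists. The first held initiation helpers and other translation-associated genes, and the others termination and recycling factors, and mitochondrial translation factors. Of 26 genes on the first list (poly(A)-binding proteins, their regulators and others), 7 were read, as 11 transcripts, of which 4 rose and 3 fell in wt and likewise 4 rose and 3 fell in dcat, shares near or below the 73.8% and 62.7% of all transcripts. Tpt1 ENSMUST00000110894, a translation-associated TOP mRNA and the most read transcript of that list, rose by a log2 fold change of 1.09 ± 0.32 in wt (adjusted p = 0.00390) and 1.37 ± 0.33 in dcat (adjusted p = 0.00135), and its tail shortened by 58.0 ± 5.1 nt and 42.6 ± 5.2 nt (adjusted p = 6.19e-05 and 0.00192). Counts of the Tpt1 transcripts ENSMUST00000142061 and ENSMUST00000134040 were not called by edgeR in either genotype (0.32 to 0.58, adjusted p = 0.326 to 0.556). The tail of ENSMUST00000142061 shortened by 50.8 ± 14.1 nt in wt (limma, adjusted p = 0.0203) and was not called in dcat (adjusted p = 0.0767). Pabpc1, the main cytoplasmic poly(A)-binding protein, fell by 2.41 ± 0.39 in wt and by 1.89 ± 0.38 in dcat on the log2 scale (adjusted p = 1.16e-05 and 0.000387), while its tail difference was −10.8 ± 7.7 nt in wt (adjusted p = 0.311). Of 11 termination and recycling genes 3 were read, and 1, Hbs1l, fell in wt. None of the 6 mitochondrial factors was among the transcripts of the tables.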

How the data were processed

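Direct RNA libraries of poly(A) RNA from 8 testes were basecalled (Guppy), demultiplexed (Deeplexicon) and mapped to mouse GENCODE genes (Minimap2, GRCm38) by the authors, who took tail lengths from Nanopolish. The deposited counts are whole, unnormalized numbers of reads with a tail, and a second table gives the tail of each read in nt. A transcript was kept by the authors if both libraries of some group held 10 reads of it or more. They also deposited DESeq2 fold changes and p-values for dcat against wt, which were not used. Aligning to transcripts gives each read to 1 transcript, so counts of transcripts with a shared 3′ end are not independent.

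Counts were compared here with edgeR 4.0.16 (TMM, quasi-likelihood test, all 8 libraries as 4 groups) in R 4.3.3, and mean tails with limma 3.58.1 (all 8 libraries, trend on read number). Contrasts were busulfan against vehicle in each genotype, dcat against wt in each treatment, and their interaction. All transcripts tested entered the Benjamini-Hochberg adjustment, and 0.05 was the threshold. The standard error of a count fold change is its size divided by the square root of the F statistic. Both scripts were tested on simulated data. Symbols, ends and exons came from GENCODE vM21. Short tails were 30 to 120 nt. Scaled CPM use TMM library sizes, and CPM of marker lists do not. Wilson 95% intervals cover counting error only.

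The members, gene lists and tests were chosen with earlier results of these data known. Any member could be named. Full values were given for the most read transcript of each elongation factor gene and of the 10 most read other genes where they changed, and, in each direction, for at most 5 called transcripts with separate groups and the largest change. Values of uncalled members were summarised. Replicates were separate mice, and replicate numbers 1 and 2 name the 2 multiplexed libraries, each with 1 mouse per group. Deviations of same-numbered libraries from their group means correlated at −0.11 to 0.19 in log2 counts (2037 transcripts) and at 0.0061 to 0.062 in tails (339 transcripts). Alternatives were DESeq2 1.42.0, RLE scaling, filterByExpr, the replicate block, sums per gene, only the 4 libraries of a contrast, medians, 20 reads, log2 tails, centring, no variance trend, read weights, and each library left out. No sample was left out.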

Additional observations from a re-analysis of the deposited data

How the results depend on the processing

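Counts called among the members, 10 in wt and 3 in dcat after busulfan, became 5 and 0 with DESeq2 (7 and 1 at an unadjusted p under 0.05), 12 and 3 with RLE scaling, 9 and 4 with filterByExpr, 10 and 2 with the replicate block or with only the 4 libraries of the contrast, and 8 and 2 of 27 with transcripts summed per gene. RLE scaling split the 12 into 6 higher and 6 lower, where TMM gave 7 and 3, and the median of all transcripts moved from 0.09 to −0.03 (wt) and from 0.14 to −0.08 (dcat). Leaving out each library gave 6 to 10 calls in wt, the fewest without wt busulfan replicate 2, and 1 to 4 in dcat, the fewest without dcat vehicle replicate 2.

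Tails called, 6 in wt and 2 in dcat, became 0 and 0 with centred libraries and 6 and 4 with read weights. Leaving out a library gave 1 to 6 in wt, where each wt library mattered (3 without either wt busulfan library or wt vehicle replicate 2, and 1 without wt vehicle replicate 1), and 0 to 3 in dcat, 0 without dcat busulfan replicate 1. An arm left with 1 library was assumed to vary like the others. Leaving out means of under 10 reads, chosen after seeing the data, gave 6 and 3. The replicate block gave 6 and 3 calls for tails, adding Eef2 in dcat. It removed the count call of Eef1b2 in dcat and changed no other call of the named transcripts. The Eef1g ENSMUST00000135025 tail difference in dcat reversed to 0.19 nt after centring. Genotype and interaction contrasts gave 0 calls among members under all alternatives run.

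Without Eif1 the log2 change of summed initiation factor reads was 0.082 in wt and 0.084 in dcat in place of −0.21 and −0.10. Without Eef1a1 that of elongation factors was 0.29 in place of 0.57 in wt. Ratios of elongation to initiation reads without both genes were 0.300 (vehicle) and 0.338 (busulfan) in wt and 0.267 and 0.329 in dcat mice. The median of pooled reads gave tail differences of −31.3 and −26.6 nt for initiation and −54.2 and −49.4 nt for elongation factors in wt and dcat. Without the most read gene they were −45.5 nt for elongation factors in wt and −8.30 nt for initiation factors in dcat, and the unweighted mean over elongation transcripts in wt gave −42.3 nt. Each library was also left out of the class values, an alternative added after seeing the data, which with 2 libraries per group only returns the value of the other library and says nothing of stability. Counting eIF5A with elongation gave no value, since no such transcript was among the members. Depth limits low members, as vehicle libraries held 0 to 7 reads of Eif6 and of each Eif4a1 transcript.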
